A study of Mus musculus with 1094 samples.

Results

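Secretogranin II (Scg2) and 7 other genes of the regulated secretory pathway (Scg3, Scg5, Chga, Chgb, Vgf, Cpe and Pcsk1n) were followed through mouse cortical development, 8 of the 23078 genes in the deposited tables. The set was chosen by name, starting from Scg2, which was seen in these same data to be among the few genes higher in basal progenitors than in neural stem cells. The difference of Scg2 between those populations is therefore given as a description, with no test. In the fit over all libraries described below, 4 of 14072 genes tested (0.0284%) were called higher in basal progenitors. That count was 28 without NSC E15.5, 26 without NBN P3, 1 without BP E18.5 or BP P0, and 615 with NSC held to radial glia profile cells (a profile explained below).

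The measurements come from 1094 single cells of the dorsal cerebral cortex of C57Bl/6 mice, labelled wild-type, female and forebrain. Neural stem cells (NSC, 538 cells) were sorted for GFP from Hes5::GFP embryos, in which the promoter of a Notch target gene drives the reporter. Basal progenitors (BP, 344 cells) and newborn neurons (NBN, 212 cells) were sorted from Tbr2::GFP embryos, in which the promoter of the basal progenitor factor Eomes (Tbr2) drives it. All 3 populations thus carry a GFP transgene on the same strain. NSC came from 8 stages (E10.5, E11.5, E13.5, E15.5, E17.5, E18.5, P0 and P1), BP from 5 (E12.5, E14.5, E16.5, E18.5 and P0) and NBN from 4 (P1, P3, E16.5 and E18.5). The cells of 1 population at 1 stage are called a library here, and there are 17 libraries of 39 to 89 cells. No label names an animal, a capture date or the gate that parted BP from NBN, so the p-values measure only the spread between these libraries, which may be technical, and a capture cannot be told apart from its stage. Nor can NSC be told apart from the Hes5::GFP line in any comparison with BP or NBN.

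Values are TPM, a share of a cell's transcripts corrected for gene length, so levels can be compared between genes. TPM hold no read depth, and the depth of each cell is unknown. The median cell had between 3189 and 5764 genes at 1 TPM or more, depending on the library, and 23 cells had under 1000. The sorted labels were checked with marker genes. Cells were given a neuron profile where the mean log2(TPM + 1) of 11 newborn neuron markers was above that of 13 radial glia markers, and a radial glia profile where it was below. Of the BP cells 95.9% had a neuron profile, and in each BP library all 11 newborn neuron markers and 10 or 11 of 11 basal progenitor markers averaged 1 TPM or more. All 13 radial glia markers did so in each NSC library, but 9 to 12 of them also did in each BP and NBN library, and all 11 newborn neuron markers did in each NSC library from E11.5 to P0, so counts of detected markers did not separate the labels. The neuron profile was found in 42.0% of NSC cells: 2.27% at E10.5, 54.2% at E11.5, 52.9% at E13.5, 90.7% at E15.5, 71.1% at E17.5, 25.8% at E18.5, and after birth 6.25% at P0 and 8.51% at P1. In NBN P3 the share was 25.0%, 36 of 40 cells held at least 3 markers of another cell type at 10 TPM or more (17 cells those of microglia, 13 those of meningeal fibroblasts), and the 9 microglia markers summed to a mean of 8385 TPM against 14.9 to 32.8 TPM in the other NBN libraries. Most cells of NSC E11.5, E13.5, E15.5 and E17.5 and of NBN P3 thus went against their labels. Such markers of another cell type were also held by 26.0% of NSC cells. In NSC E11.5 they were held by 37 of 59 cells (34 erythroid, 15 interneuron). In NSC E10.5 it was 21 of 88 (18 erythroid), and in NSC P0 17 of 48 (16 interneuron). The main results are therefore also given with NSC held to radial glia profile cells, or without the library concerned.

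Granins are acidic, soluble proteins that aggregate with calcium in the trans-Golgi network and help to form dense-core granules, from which neurons and endocrine cells release hormones and neuropeptides on stimulation. Scg2 (secretogranin II), Chga (chromogranin A), Chgb (chromogranin B) and Vgf are large granins that are also cut into bioactive peptides, and the peptide secretoneurin comes from Scg2. Scg3 binds chromogranin A and cholesterol-rich granule membrane, Scg5 (7B2) is the chaperone of the prohormone convertase PC2, and Pcsk1n (proSAAS) is an inhibitor of the prohormone convertase PC1. Cpe (carboxypeptidase E) trims basic residues from the peptides that convertases release.

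Several granin promoters are textbook targets of CREB-family factors, which bind the cyclic AMP response element, TGACGTCA, or its shorter core TGACG. RefSeq promoter windows (GRCm38.p6, 250 bases before to 50 after the start) were held for 6 of the 8 genes, and none for Cpe or Vgf. They are shown for the 4 granin genes that, as described further on, were found more often in neuron-profile cells and that hold a match within 120 bases of their start. The 120 bases before each start are printed 5′ to 3′ on the gene's strand, and capitals mark every match to TGACG on either strand, adjoining matches of which make up the full element.
Scg2 (chr1:79440027-79440146, minus strand): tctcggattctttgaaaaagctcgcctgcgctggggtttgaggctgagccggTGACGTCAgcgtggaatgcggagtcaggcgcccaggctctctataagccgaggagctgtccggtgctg
Chgb (chr2:132781522-132781641, plus strand): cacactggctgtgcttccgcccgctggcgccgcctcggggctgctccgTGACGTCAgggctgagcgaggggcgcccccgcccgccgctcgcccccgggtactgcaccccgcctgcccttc
Chga (chr12:102554821-102554940, plus strand): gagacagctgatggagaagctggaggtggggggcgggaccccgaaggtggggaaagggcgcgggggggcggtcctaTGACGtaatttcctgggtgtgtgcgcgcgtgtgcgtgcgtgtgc
Scg3 (chr9:75684057-75684176, minus strand): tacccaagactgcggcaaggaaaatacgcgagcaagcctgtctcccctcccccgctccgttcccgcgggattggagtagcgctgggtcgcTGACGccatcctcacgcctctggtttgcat
The full element began 68 bases before the start in Scg2 and 72 bases before it in Chgb. Chga and Scg3 held the core alone, at 44 and 30 bases before the start. Scg5 held the core 3 times, 1 of them upstream of its start, and Pcsk1n held none in the 300 bases. Of all 32851 promoter windows of this length, 1.79% held the full element and 20.8% the core, which every full element contains on both strands. These matches describe the letters only.

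Scg2 (chromosome 1, 79434669 to 79440120, minus strand, GRCm38) was a rare transcript at every stage, and it was lowest in NSC. Its mean over the cells of a library, in TPM, was 0.143 at E11.5, 7.65 at E13.5, 2.38 at E15.5, 3.51 at E17.5 and 0.0636 at E18.5 in NSC, and 0 in NSC of E10.5, P0 and P1. In BP the means were 13.6 at E12.5, 26.1 at E14.5, 28.4 at E16.5, 13.3 at E18.5 and 19.9 at P0. In NBN they were 22.9 at E16.5, 17.1 at E18.5, 16.4 at P1 and 33.3 at P3. The NSC libraries were highest from E13.5 to E17.5 and did not overlap with BP or NBN, whereas BP and NBN overlapped each other. The low NSC values took part in choosing Scg2, and the share of all genes with such a gap was not counted. The gap and the NSC course also depended on single cells. Without its highest cell NSC E13.5 was at 0.0185 TPM, and NBN P3 was at 0, within the NSC range. The lowest BP library was then E18.5 at 1.99 TPM, beside 1.98 TPM in NSC E17.5, then the highest NSC library. On the log2(mean TPM + 1) scale the 8 NSC libraries averaged 0.92 ± 1.24 (SD). The 5 BP libraries averaged 4.35 ± 0.49 (SD), and the 4 NBN libraries 4.49 ± 0.45 (SD).

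In a limma fit over all 17 libraries with age as a covariate, the log2 difference of Scg2 was 3.44 ± 0.58 (SE) for BP minus NSC and 3.66 ± 0.69 (SE) for NBN minus NSC. Both are descriptions, since both are measured from the low NSC libraries that singled Scg2 out. NBN minus BP is a description too, since the BP libraries also took part in that choice. It was 0.22 ± 0.73 (SE; 95% interval -1.31 to 1.75), and was 0.04 without NBN P3. The sizes depended on the cells with most Scg2: with the highest cell of each library left out, BP minus NSC was 2.48 ± 0.59 (SE) and NBN minus NSC 2.21 ± 0.70 (SE). With NSC held to radial glia profile cells, they were 4.34 ± 0.40 (SE) and 4.45 ± 0.47 (SE), and without NSC E15.5 they were 3.56 ± 0.60 (SE) and 3.77 ± 0.70 (SE). Without NSC E11.5, E13.5 or E17.5 in turn, BP minus NSC was 3.32, 3.74 and 3.64. They also depended on the scale, as the mean over cells of log2(TPM + 1) differed by 0.29 for BP minus NSC and by 0.51 for NBN minus NSC.

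Cell by cell, Scg2 was found at 1 TPM or more in 13 of 538 NSC (2.42%, 95% exact interval 1.29 to 4.10%), 19 of 344 BP (5.52%, 3.36 to 8.49%) and 21 of 212 NBN (9.91%, 6.24 to 14.7%). These intervals cover counting error only. The share ran from 0% to 7.89% over the NSC libraries, from 3.37% to 9.21% over BP and from 2.50% to 15.9% over NBN, so single libraries of all 3 populations overlapped. With 0 of 88 cells in NSC E10.5, 0 of 48 in NSC P0 and 0 of 47 in NSC P1, shares of up to 3.41%, 6.25% and 6.38% remain possible, taking 3 cells as the limit for a count of 0. In the cells that held it the median Scg2 level was 25.8 TPM in NSC, 119 TPM in BP and 116 TPM in NBN. Few cells therefore set each mean: in the 14 libraries with the transcript, the highest cell held between 35.8% and 100% of the summed Scg2. In NBN P3, the highest library mean of all, 1 cell at 1332 TPM was the sole cell of 40 with Scg2.

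**Figure D1:**
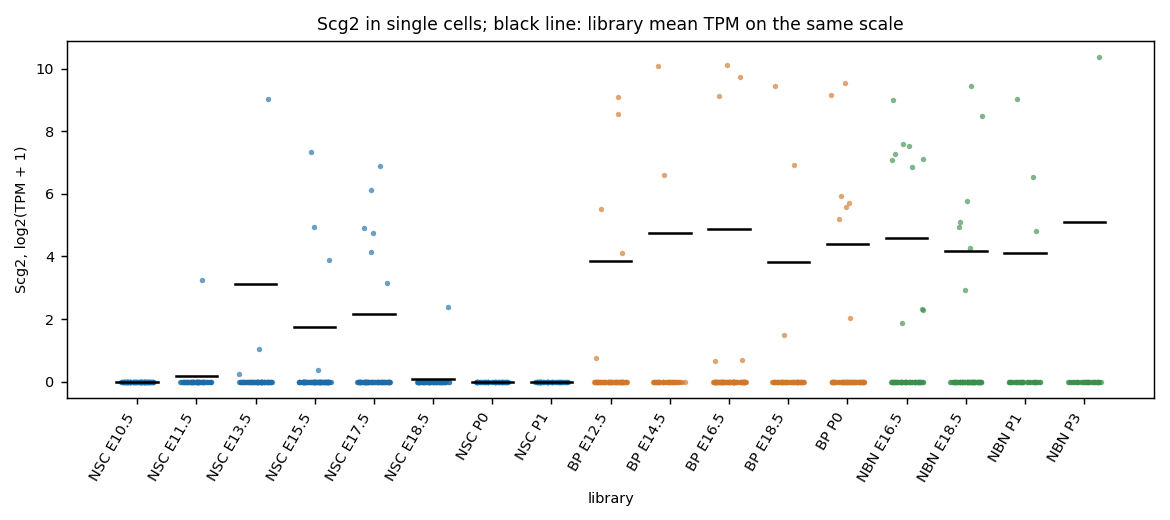
Scg2 in each of the 1094 cells as log2(TPM + 1), by library, with horizontal jitter; the black line is the library's mean TPM on the same scale. Most cells sit at 0 in every library, and only the highest cells of BP E14.5, BP E16.5 and NBN P3 reach above 10 on this scale.

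The Scg2 cells mostly had the neuron profile, which does not tell neurons from basal progenitors, as 95.9% of BP cells had it too. Of the 53 cells with Scg2, 51 (96.2%) had a neuron profile, against 66.6% of all cells. Neurod6, a transcription factor of young excitatory neurons, was also found in 51, against 70.4% of all cells and 93.6% of BP. The 1 Scg2 cell of NBN P3, at 1332 TPM the highest of all, had a radial glia profile. Among the 13 such cells sorted as NSC, 12 had the neuron profile, against 42.0% of NSC. Of the 53, 4 were dividing (at least 5 of 12 G2/M markers at 10 TPM or more), against 20.7% of all cells. By population, 23.1% of Scg2 cells were dividing in NSC (36.2% of all NSC) and 0% in BP (7.56% of all BP). In NBN it was 4.76%, from 1 cell, against 2.36% of all NBN. Interneuron markers marked 4 of the 53 (7.55%, against 8.50% of all cells) and Cajal-Retzius markers 4 (7.55%, against 3.11%). Erythroid markers marked 1 (1.89%, against 5.12%). No Scg2 cell held the microglia, endothelial, mural or meningeal marker sets, each of which was held by 0.274% to 1.83% of all cells. Eomes itself was found in 45.3% of Scg2 cells and in 44.1% of all cells, but the populations differed. Its share of Scg2 cells was 76.9% in NSC (40.3% of all NSC), 57.9% in BP (67.7%) and 14.3% in NBN (15.6%). These shares were not tested.

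The other granule genes accompanied Scg2 to different degrees. Scg3 was found in 45 of the 53 cells (84.9%, against 57.1% of all cells), Scg5 in 41 (77.4%, against 53.1%) and Cpe in 38 (71.7%, against 63.5%). Chga and Chgb were each found in 16 (30.2%), against 19.8% and 14.1% of all cells. The populations differed here too. For Chga the shares of Scg2 cells were 38.5% in NSC (12.6% of all NSC), 31.6% in BP (31.7%) and 23.8% in NBN (18.9%). For Chgb they were 46.2% in NSC (8.36%), 36.8% in BP (21.8%) and 14.3% in NBN (16.0%). For Cpe they were 76.9% in NSC (61.3%), 78.9% in BP (66.3%) and 61.9% in NBN (64.6%). Vgf was found in 2 and Pcsk1n in 5. Npy, the precursor of neuropeptide Y, was found in 7 of the 53 (13.2%) and in 3.66% of all cells. Of these 7 cells 6 were NBN, where 28.6% of Scg2 cells and 15.1% of all cells held Npy. These shares pool libraries whose cell make-up differs, and they were not tested.

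Scg3 (chromosome 9) was a common transcript in all 3 populations. Its library means in NSC were 8.50 TPM at E10.5, 114.6 at E11.5, 70.2 at E13.5, 169 at E15.5, 189 at E17.5, 128 at E18.5, and after birth 169 at P0 and 336 at P1. They lay between 135.3 and 213 TPM in BP and between 121 and 243 TPM in NBN. NSC E10.5 stood far below every other library, and from E15.5 on the populations overlapped. The share of cells with Scg3 was 50.4% in NSC, 69.5% in BP and 54.2% in NBN, and it ranged from 15.9% to 75.0% over the NSC libraries.

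Scg5 (chromosome 2) followed a similar course. Its NSC means were 23.8 TPM at E10.5, 86.7 at E11.5, 89.9 at E13.5, 203 at E15.5, 287 at E17.5, 309 at E18.5, and after birth 230 at P0 and 237 at P1. In BP the means were 156, 251, 373, 398 and 599 TPM in order of stage, the highest of any granin in the data. In NBN they were 263, 317, 188 and 8.07 TPM, so that the P3 library, where 2 of 40 cells held Scg5, stood apart from the other NBN libraries. The share of cells with Scg5 was 44.8% in NSC, 68.9% in BP and 48.6% in NBN.

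Chga (chromosome 12) and Chgb (chromosome 2), the chromogranins, were found in fewer cells. Chga library means ran from 0.00481 to 167 TPM in NSC with a median of 28.5, from 47.1 to 84.1 TPM in BP and from 30.1 to 42.4 TPM in NBN. No cell of NSC E10.5 or NSC E11.5 reached 1 TPM of Chga, which allows shares of up to 3.41% and 5.08%, and the NSC maximum, at P1, came to 75.7% from 1 cell of 5943 TPM. Chga was found in 12.6% of NSC, 31.7% of BP and 18.9% of NBN.

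Chgb library means ran from 0.0797 to 18.6 TPM in NSC with a median of 4.95. They were 5.53, 11.9, 28.2, 15.8 and 29.7 TPM in BP in order of stage, and 25.9, 45.9, 38.6 and 0 TPM in NBN. In NBN P3, 0 of 40 cells held Chgb, which allows a share of up to 7.50%. Chgb was found in 8.36% of NSC, 21.8% of BP and 16.0% of NBN.

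Vgf (chromosome 5) and Pcsk1n (chromosome X) were near the floor. Vgf was found in 23 of 1094 cells (2.10%). Its highest library mean was 8.53 TPM in NSC E13.5, 95.3% of it from 1 cell, and the next were 5.20 TPM in NBN E18.5 and 1.20 TPM in BP E18.5. It was too low to enter the fits, which required a mean of 1 TPM or more in at least 4 libraries, so 7 of the 8 genes were tested. Pcsk1n was found in 60 cells (5.48%), with library means of 0 to 3.55 TPM. Its exons overlap those of Eras on the opposite strand, and no source used here says that strand was counted, so its values are uncertain.

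Cpe (chromosome 8, minus strand), the processing enzyme, was the most abundant of the set and, like Scg3, was found in most cells of every population, at 61.3% of NSC, 66.3% of BP and 64.6% of NBN. Its NSC library means were 57.0 TPM at E10.5, 156 at E11.5, 354 at E13.5, 376 at E15.5, 819 at E17.5, 751 at E18.5, and after birth 2775 at P0 and 1176 at P1. They were 878, 421, 538, 432 and 554 TPM in BP and 484, 646, 897 and 286 TPM in NBN in order of stage. The NSC libraries at the ends of the series thus lay on either side of BP and NBN, and at P0 1 cell of 55223 TPM held 41.5% of the sum, without which the mean was 1659 TPM.

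**Figure D2:**
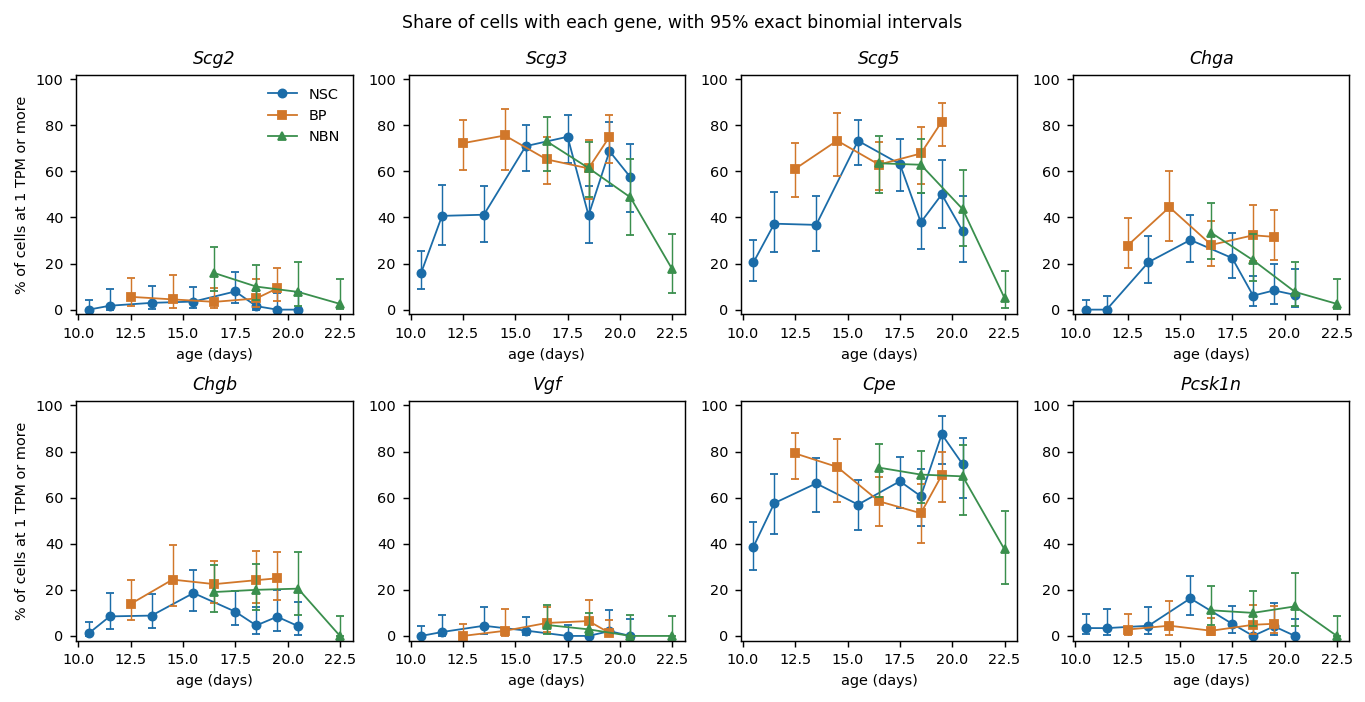
Share of cells with each gene at 1 TPM or more, by library and age in days, with 95% exact binomial intervals for counting error. Cpe, Scg3 and Scg5 are found in a large share of cells in most libraries, Scg2 in at most 15.9% of any library, and Vgf in at most 6.45%.

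NBN were compared with BP to ask whether the genes changed as basal progenitors gave way to neurons. None of the tested genes other than Scg2 was called, where 2 of 14072 genes (0.0142%) were and 1283 had an unadjusted p under 0.05. Scg2 is left out of this count, since the BP libraries took part in choosing it. Without NBN P3, 15 genes were called and still none of these members. Scg5 came nearest, at a log2 difference of -2.02 ± 0.91 (SE; adjusted p = 0.530, limma), and it was -0.93 without NBN P3. Chga differed by -1.49 ± 1.21 (SE; adjusted p = 0.749, limma). The median over the 7 genes, Scg2 included, was -0.54, beside -0.23 over all genes tested.

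NBN were also compared with NSC, over the 6 tested genes other than Scg2. None was called, where 233 genes (1.66%) were, and their log2 differences lay between -0.92 for Scg5 and 0.95 for Chgb. The number of genes called was 606 without NBN P3, 433 without NSC E15.5 and 63 without NSC P1. Each of the 6 had an interval that crossed 0, from -2.73 to 0.89 for Scg5 and from -1.20 to 3.10 for Chgb. Without NBN P3 the difference of Scg5 turned to 0.11 and that of Chgb was 2.01 (adjusted p = 0.914 and 0.101, limma), and none of the 6 was called. BP minus NSC, given with no test because it is the contrast of the choice, was above 0 for all 7 genes, at 1.95 ± 0.96 (SE) for Chga, 1.34 ± 0.86 for Chgb, 1.09 ± 0.72 for Scg5, 0.52 ± 0.48 for Scg3, 0.47 ± 0.48 for Pcsk1n and 0.10 ± 0.52 for Cpe. With NSC held to radial glia profile cells the difference was 3.34 for Chgb, 2.22 for Scg5 and 2.09 for Scg3, while that of Cpe was 0.15. The sign was not stable for 3 of the genes. Cpe turned to -1.30 with stage as a factor in place of a linear age, to -1.24 in libraries from E16.5 on and to -0.40 without BP E12.5. Scg3 turned to -0.11 in libraries from E16.5 on, and Pcsk1n to -0.026 with the highest cell left out. The median of the 7, Scg2 included, was 1.09, beside 0.13 over all genes tested, of which 57.8% were above 0.

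With age, Cpe and Scg3 rose in the NSC libraries. In the fit with a slope for each population, Cpe rose by 0.44 ± 0.058 log2 units per day (SE; adjusted p = 0.00121, limma, 8 NSC libraries), and Scg3 by 0.32 ± 0.074 (SE; adjusted p = 0.0407, limma). These are 2 of 7 genes, where 192 of 14072 genes (1.36%) were called, 85 without NSC E10.5 and 286 without NBN P3. Scg5 had a slope of 0.29 ± 0.079 (SE; adjusted p = 0.0883, limma) and Chga of 0.43 ± 0.17 (SE; adjusted p = 0.266, limma). Scg2 showed no trend, at -0.05 ± 0.11 (SE). The call for Cpe held in all 29 alternative fits, those without NSC E11.5, E13.5, E15.5 or E17.5 among them (slopes 0.46, 0.45, 0.44 and 0.43). The call for Scg3 did not: it was lost in 20 of 29, among them 13 of the 17 fits that leave out 1 library, and without NSC E10.5 the slope was 0.15 (adjusted p = 0.297, limma).

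The cell make-up of the NSC libraries moved with age too. Neuron-profile cells were few at both ends of the series, as given above. The 10 astroglia markers summed to 55.2 to 601 TPM from E10.5 to E17.5 and to 2780, 4736 and 7154 TPM at E18.5, P0 and P1, and their part in the slopes was not tested. The slope of Cpe was as large among the radial glia profile cells alone, at 0.43 (adjusted p = 0.000347, limma). The astroglia markers took no part in that profile, so cells with astroglia markers were not left out. In those cells mean Cpe was 58.4 TPM at E10.5, 166 at E11.5, 257 at E13.5, 474 at E15.5, 838 at E17.5, 801 at E18.5, and after birth 1784 at P0 and 1275 at P1. Mean Scg3 in the same cells was 6.57, 17.8, 16.9, 0, 89.2, 157, 168 and 364 TPM, the E15.5 value from 8 cells, and its slope was 0.53 (adjusted p = 0.0818, limma).

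In BP no member had a called slope, and no gene of 14072 did (0%; 512 had an unadjusted p under 0.05). The BP slope minus the NSC slope of Cpe was -0.52 ± 0.12 log2 units per day (SE; adjusted p = 0.811, limma), and that of Scg3 was -0.26 ± 0.15 (SE; adjusted p = 1, limma). Across all genes 1 (0.00711%) was called for this difference and 556 had an unadjusted p under 0.05. In NBN no member was called either, where 63 genes (0.448%) were, 1 without NBN P3 and 869 without NBN P1. The steepest NBN slopes were -0.77 ± 0.17 for Scg5 (SE; adjusted p = 0.0565, limma) and -0.72 ± 0.28 for Chgb (SE; adjusted p = 0.179, limma). Both rested on NBN P3, without which they were -0.12 and 0.14.

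**Figure D3:**
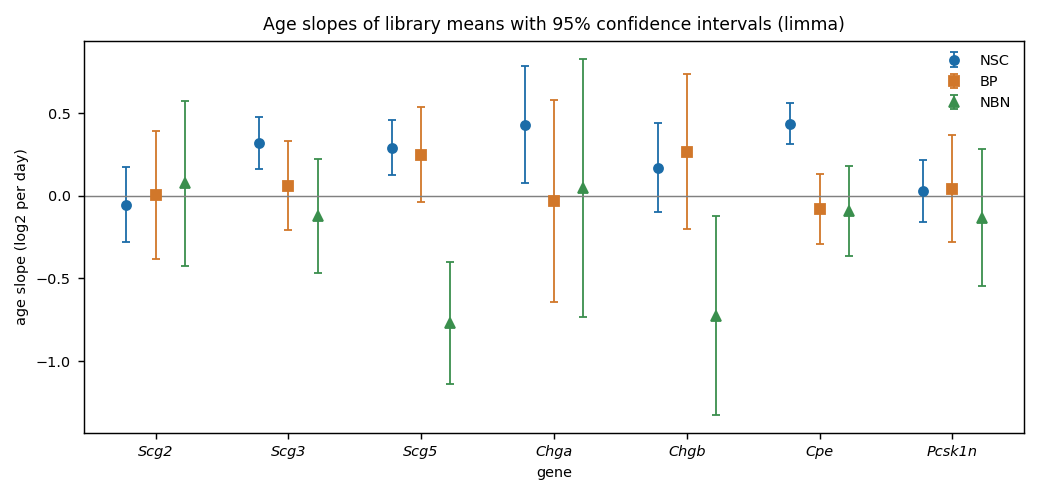
Age slopes of the 7 tested genes in log2 units per day, by population, as limma estimates with 95% confidence intervals. The NSC interval of Cpe, 0.31 to 0.56, lies above 0, while the BP and NBN intervals of Cpe cross it.

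Within the NSC libraries, the granins were found more often in neuron-profile than in radial glia profile cells, whereas Cpe was found about equally often in both. The 5 NSC libraries with at least 5 cells of each profile (E11.5, E13.5, E15.5, E17.5 and E18.5) held 217 neuron-profile and 137 radial glia profile cells. Scg3 was found in 70.5% of the former and 32.1% of the latter, and Scg5 in 66.8% and 27.7%. For Chga the shares were 25.8% and 3.65%, for Chgb 16.6% and 1.46%, for Pcsk1n 10.1% and 0.730%, and for Scg2 5.53% and 0.730%. For Cpe they were 62.7% and 60.6%. The share was higher in the neuron-profile cells of all 5 libraries for Scg5 and Chgb, of 4 libraries for Scg2, Scg3 and Chga, and of 2 for Cpe. The profiles were cut from a score, and cells within 1 log2 unit of the cut numbered 3 to 16 in these libraries. No test was made, since the cells of a library are not replicates.

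**Figure D4:**
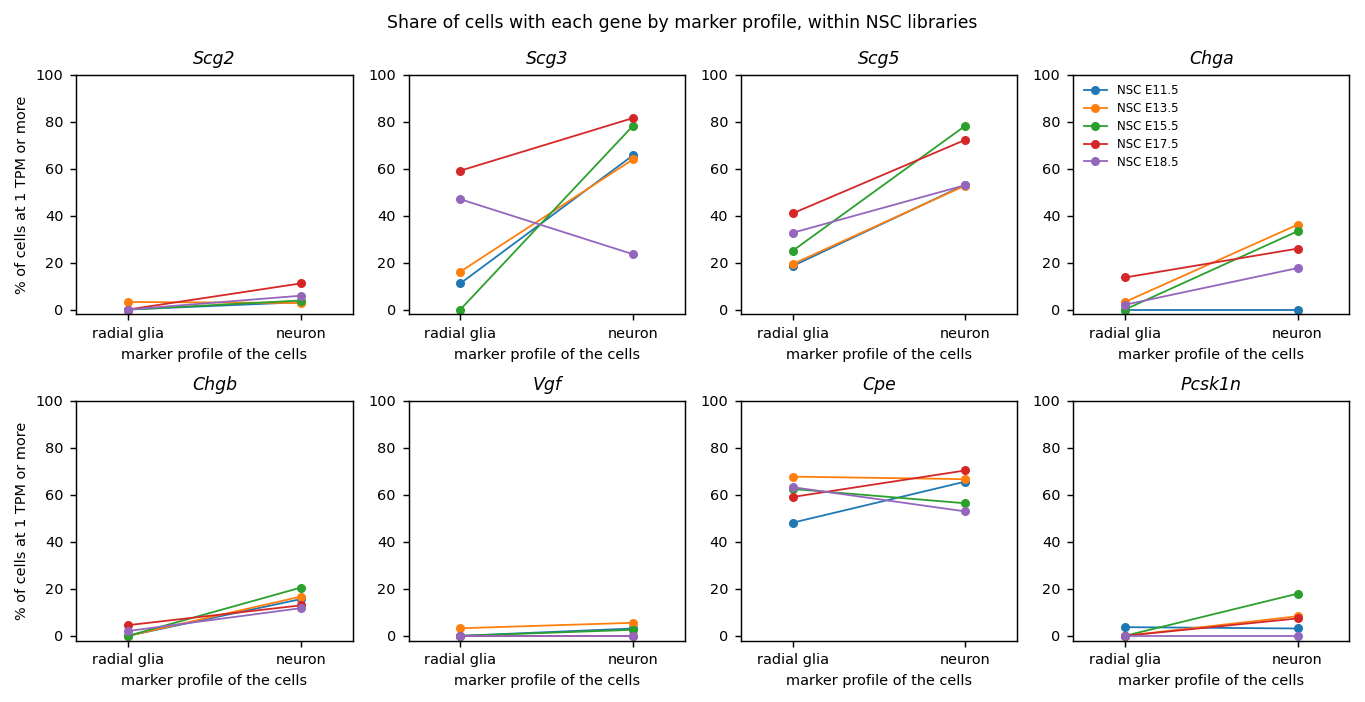
Share of cells with each gene at 1 TPM or more among the radial glia profile and neuron profile cells of the same NSC library; each line is 1 of 5 libraries. Lines rise to the right for Scg5 and Chgb in all 5 libraries, and for Scg3 in all but NSC E18.5, and run in both directions for Cpe.

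Cells seldom held the whole set. The median cell had 1 member at 1 TPM or more in NSC E10.5 and E11.5, 1.5 to 3 in the other NSC libraries, 2 or 3 in BP and in NBN up to P1, and 0 in NBN P3. At least 4 members were found together in 22.2% to 35.6% of cells of the BP libraries in 0% to 27.9% of those of the NSC libraries, and in 36.5%, 27.1%, 15.4% and 2.50% of those of NBN in order of stage. Within libraries the members were weakly ordered together: Spearman correlations across cells, averaged over the libraries of a population, had a median over the 28 pairs of 0.068 in NSC, 0.063 in BP and 0.045 in NBN. The highest were 0.28 for Scg3 with Cpe in NBN, 0.25 for Scg2 with Chgb in NSC, 0.25 for Scg2 with Scg5 in NBN and 0.21 for Scg5 with Cpe in BP. In counts this sparse such values describe the cells only, and cells of a library may share a capture, which the labels do not name.

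Across the 17 library means some of the members varied together. Pearson's r of log2(mean TPM + 1), a description over 17 libraries, was 0.85 for Scg5 with Chgb and 0.76 for Scg3 with Cpe. It was 0.62 for Scg3 with Chga, 0.62 for Scg3 with Scg5 and 0.60 for Scg2 with Chga. The lowest was -0.10, for Vgf with Pcsk1n. The genes most like Scg2 over these libraries, of 12624 tested genes that reached a mean of 10 TPM in some library, were Herc1 (r = 0.85), Clcn4-2 (0.83), Sptan1 (0.83), Csnk1e (0.82), 8430427H17Rik (0.82), Plxna4 (0.82), Lmo4 (0.81), Cxadr (0.81), Trim3 (0.81) and Dscam (0.81). Chga ranked 429th and Scg5 5374th. By the mean Spearman correlation over cells in the 14 libraries with Scg2, among 8049 genes found in at least 20% of cells, the leading genes were Acot7 (0.19), Trappc2 (0.19), Abhd11 (0.18), Srcin1 (0.17), Snurf (0.16), Gsk3a (0.16), Snrpn (0.16), Pkia (0.16), Lhx2 (0.16) and Eid1 (0.16). Scg5 ranked 129th there. Libraries share cell make-up, and cells of a library may share a capture, so these lists rank likeness and carry no test.

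The rest of the pathway was described from 6 lists, to be read against the shares of all genes called: 0.448% for the NBN slope, 1.36% for the NSC slope and 1.66% for NBN against NSC. Of 12 propeptide processing enzymes 11 were tested, and none was called in NBN against BP, NBN against NSC or with age in any population. The most abundant were Ctsl, a lysosomal and granule protease, at a mean of 138 TPM over the 17 libraries (823 TPM in NBN P3), Pam, which amidates peptides, at 89.8 TPM, and Qpct, which forms N-terminal pyroglutamate, at 21.4 TPM. Pcsk1, the convertase PC1 that Pcsk1n inhibits, was found in 3 cells of 1094, and Pcsk2, the convertase PC2 that Scg5 escorts, in 118 (10.8%).

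Of 29 genes of the granule membrane and its traffic 27 were tested, and 1 was called: Syt11, a synaptotagmin that does not bind calcium, fell with age in NBN by 0.75 ± 0.14 log2 units per day (SE; adjusted p = 0.0388, limma). The call was lost in 11 of the 17 fits that leave out 1 library, and without NBN P3 the slope was -0.18 (adjusted p = 0.627, limma). Syt11 was also the most abundant, at a mean of 375 TPM, followed by Syt4 at 153 TPM and Rab3a, a GTPase of secretory vesicles, at 115.4 TPM. Syt4, a synaptotagmin of dense-core granules, averaged 53.6 TPM in NSC, 184 TPM in BP and 314 TPM in NBN.

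Of 29 prohormones and neuropeptides 18 were tested, and none was called in the tested comparisons. Npy averaged 31.0 TPM in NSC, 0.0593 TPM in BP and 136 TPM in NBN, and was found in 40 of 1094 cells. Nts (neurotensin) and Nmb (neuromedin B) followed at means of 11.1 and 10.4 TPM. Gcg (proglucagon) averaged 0.212 TPM in NSC, 14.2 TPM in BP and was listed at 0 in all NBN libraries. It was found in 20 of 1094 cells.

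Among 4 growth factors carried in granules, 3 were tested. Ntf3 (neurotrophin 3) was higher in NBN than in NSC by 4.79 ± 0.98 log2 units (SE; adjusted p = 0.0216, limma), at means of 66.3 and 1.71 TPM. It was found in 32 cells, and without NBN P3 the difference was 5.80 (adjusted p = 0.000284, limma). Without NSC P0, NSC P1, NBN E16.5 or NBN E18.5 the call was lost, with adjusted p from 0.0519 to 0.0673. Of 23 peptide receptors 13 were tested. Crhr1, a receptor of corticotropin-releasing hormone, was higher in NBN than in NSC by 2.41 ± 0.50 (SE; adjusted p = 0.0223, limma) and fell with age in NBN by 0.59 ± 0.10 per day (SE; adjusted p = 0.0388, limma). Its difference was lost without NBN E16.5 (adjusted p = 0.0797) or NBN E18.5 (0.0780), and its slope was no longer called when any 1 of 8 libraries was left out, at -0.50 without NBN P3 (adjusted p = 0.232). Ntsr1, a neurotensin receptor, was higher in NBN than in NSC by 3.47 ± 0.83 (SE; adjusted p = 0.0426, limma), but the call was lost in 13 of the 17 fits that leave out 1 library. Adcyap1r1, the receptor of the neuropeptide PACAP, and Ntrk2, the receptor of brain-derived neurotrophic factor, rose with age in NSC by 0.39 ± 0.092 and 0.29 ± 0.068 per day (SE; adjusted p = 0.0434 for both, limma). Each of these calls was lost in 12 of those 17 fits, and without NSC E10.5 the slopes were 0.24 (adjusted p = 0.344) and 0.27 (adjusted p = 0.218).

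Among 10 regulators known to act on granin genes, the repressor Rest with its corepressors and the CREB family with its coactivators, none of the 10 tested was called in any tested comparison. Atf1, Creb1 and Crem, which can bind the element shown above, averaged 35.1, 32.8 and 29.1 TPM.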

How the data were processed

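Per the submitters' processing notes, kallisto 0.43.0 was used and the builds GRCm38.p2 and mm10 are named; the labels' protocols describe Fluidigm C1 capture, SMARTer cDNA, Nextera XT libraries and single-end reads. The deposited values are TPM per gene and cell. In 7 near-empty cells the deposited columns hold whole numbers, treated as a score on the TPM scale. Depth is unknown; precision rests on the number of cells and libraries, and shares carry exact (Clopper-Pearson) 95% intervals, with 3 cells as the limit that a count of 0 allows.

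Each library's value was log2 of its mean TPM plus a pseudocount of 1, which understates changes of low genes. The 14072 genes with a mean of 1 TPM or more in at least 4 libraries entered a fit in limma 3.58.1 under R 4.3.3 (trend, two-sided, Benjamini-Hochberg, threshold 0.05), checked on simulated data. The populations were compared over the 17 libraries with a linear age term; slopes came from a fit with 1 slope per population. Age is the embryonic day, or 18.5 plus the labelled age in days after birth. All 8 members are named, with called and most abundant genes of the 6 pathway lists and the 10 genes most like Scg2 by each measure. Members and lists were chosen with earlier results of these data known. Scg2 was left out of the NBN against NSC count, a choice made after the files were seen. It is left out of the NBN against BP count too, since the BP libraries took part in choosing it. Shares came from SciPy 1.17.1 and pandas 2.3.3 under Python 3.11.15. Alternatives changed the pseudocount, filter, scaling, cells kept, age term and libraries; leaving out each gene's highest cell, or cells whose profile went against the sort, was added after seeing the data.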

Additional observations from a re-analysis of the deposited data

Results flagged for a closer look

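In groups of 4 to 10 libraries, a highest or lowest value far from its nearest neighbour was looked for in the 24 combinations of member and population, and 4 were found; chance alone gives about 1 in 20. On the log2(mean TPM + 1) scale Scg3 in NSC E10.5 was at 3.25, with the next NSC library at 6.15. Scg5 in NBN P3 was at 3.18, with the next NBN library at 7.56, and Chgb in NBN P3 was at 0, with the next at 4.75. Vgf in NSC E13.5 was at 3.25, with the next NSC library at 0.12, and 1 cell of 553 TPM held 95.3% of it.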

How the results depend on the processing

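The count of members called was 0 under every alternative for NBN against BP, NBN against NSC, the BP slope and the BP minus NSC slope. In NSC the count of 2 became 1 with a pseudocount of 0.1, no filter, quantile normalization, radial glia profile cells only or profile-matched cells only. In that order 143, 131, 162, 205 and 186 genes were called over all genes, against 192 in the main fit. The count of members ranged from 1 to 3 with 1 library left out (Scg5 joined without NBN P3, P1 or E16.5). In NBN the count of 0 became 1 (Scg5) with a pseudocount of 0.1, no filter or a filter at 10 TPM. It was 3 with means of log2 values (Scg2, Scg3 and Scg5). It was 2 with the highest cell left out and 2 with profile-matched cells (Scg2 and Scg5 in both). With 1 library left out it ranged from 0 to 1. Calls of the NBN slope over all genes rose as well, from 63 of 14072 to 233 with a pseudocount of 0.1. They were 780 of 19873 with no filter, 128 of 10266 with a filter at 10 TPM and 2116 of 14072 with means of log2 values. They were 840 of 14072 with the highest cell left out and 780 of 13818 with profile-matched cells. The BP minus NSC difference of Scg2 moved to 5.37 with a pseudocount of 0.1, 1.37 with a pseudocount of 10 and 0.29 with means of log2 values, and ranged from 3.27 to 3.74 with 1 library left out. NBN minus BP of Scg2 turned to -0.44 without cells with markers of another type, -0.036 with stage as a factor, -0.27 with the highest cell left out and -0.84 with profile-matched cells. The NBN slope of Chgb turned to 0.087 without cells with markers of another type, and ranged from -1.39 to 0.14 with 1 library left out (0.14 without NBN P3). The share of cells with Scg2 stayed within its interval for each population above 0 TPM, at 10 TPM or more, in cells with 1000 genes or more and without cells with markers of another type.

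Over all 42 differences and slopes of the members (BP minus NSC aside), 27 changed sign in at least 1 alternative; the called NSC slopes of Cpe and Scg3 did not. Scg2 in NBN minus NSC, a description, ran from 0.51 to 5.74. The Cpe slope ran from 0.37 to 0.49, with adjusted p from 0.000347 to 0.0194 (limma). The cause of these changes was not tested beyond the libraries named. Quantile normalization raised the higher calls from 55 of 233 to 111 of 274 in NBN against NSC and from 16 of 63 to 33 of 55 for the NBN slope, and brought the all-gene median of NBN minus BP from -0.23 to -0.02. No paired analysis was possible because the replicate numbers in the labels number the cells within a library. Stage, which the populations share in part, was fitted as a factor, with 0 members called in NBN against BP and in NBN against NSC. Depth is unknown, so a gene at 0 in a cell may have been missed.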
